A study of Mus musculus with 9 samples.

Results

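CTCF binding was examined around 3 genes that keep mouse CD8+ T cells in a resting, T-lineage state: Bach2, Bcl11b and Id3. The members were chosen by position, as all CTCF peaks overlapping chr4:32150000-32750000 for Bach2, chr12:109050000-109350000 for Bcl11b and chr4:135600000-135800000 for Id3 in the mm9 build. Overlapping peaks of the 8 libraries (1 bp or more) were joined into regions. This gave 31 regions in the Bach2 window, 19 in the Bcl11b window and 27 in the Id3 window, 77 of 39574 regions in all.

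CTCF is a zinc-finger protein that binds insulators and loop anchors in chromatin, where it can bring distant enhancers and promoters together or keep them apart. Bach2 encodes a basic leucine zipper repressor that restrains effector differentiation in T cells. Bcl11b encodes a zinc-finger factor needed for commitment to the T cell lineage and for its maintenance. Id3 encodes a helix-loop-helix protein without a DNA-binding region that holds E proteins off DNA and is expressed in naive and memory CD8+ T cells. In the RefSeq order of protein-coding genes, Bach2 lies between Map3k7 and Gja10, Bcl11b next to Setd3, and Id3 between Rpl11 and E2f2. No annotation of mm9 was used here, so regions are given by position in each window and are not assigned to an exon, an intron or a promoter, and some may belong to neighbouring genes.

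The cells were CD8+ T cells from mouse spleen, sorted as CD62Lhi and CD44lo-med, with TCRbeta and GFP on. All animals carried hCD2-Cre, a Cre transgene active in lymphocytes, and the Rosa26-lsl-GFP reporter, which marks cells in which Cre has acted. The mutant genotype (Tcf1-/-Lef1-/-, called DKO) carried floxed Tcf1 and Lef1, both encoding HMG-box transcription factors of T cells, and the other genotype was wild type (WT). CTCF was mapped by CUT&RUN, in which an antibody-tethered nuclease releases the DNA around the bound protein, in DKO cells cultured for 72 h with IL-7 and IL-15, WT cells cultured likewise, and uncultured DKO and WT cells (0 h, called naive here), with 2 libraries each. IL-7 and IL-15 are cytokines that maintain naive and memory CD8+ T cells. One IgG library of WT cells at 0 h was the background control, and 0 of its 5 peaks lay in the 3 windows. Age and sex of the animals, and whether replicates came from separate animals, were not in the labels, so p-values here speak only for the spread among these libraries, which may be technical.

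Lists differed in length, which bears on every count below. The regions with a peak numbered 10113 and 15842 in the cultured DKO libraries, 16930 and 26071 in cultured WT, 29949 and 31047 in naive DKO, and 32175 and 30523 in naive WT. The median of the authors' fold enrichment over local background ran from 7.04 to 9.11 at 72 h and from 9.83 to 10.4 at 0 h. An absent peak means only that no peak of fold 4 or more was listed. The part of list length and background in the differences below was not tested, and read totals were not used here.

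Fewer regions had a listed CTCF peak after culture at all 3 loci, along with shorter lists, and in naive cells the loci differed in which genotype held more. In the Bach2 window, 6 and 9 regions had a peak in the cultured DKO libraries, 9 and 22 in cultured WT, 19 and 24 in naive DKO, and 26 in each naive WT library. Naive DKO libraries thus lay below naive WT libraries at Bach2, and WT replicate 2 at 72 h stood far above replicate 1. In the Bcl11b window the numbers were 1 and 3 in cultured DKO, 4 and 6 in cultured WT, 11 and 11 in naive DKO, and 15 and 10 in naive WT. In the Id3 window they were 6 and 12 in cultured DKO, 12 and 18 in cultured WT, 23 and 23 in naive DKO, and 21 and 18 in naive WT. Id3 was the locus where naive DKO libraries lay above naive WT libraries.

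Relative to all regions called in the same library, the naive difference kept its direction at Bach2 and Id3. Per 10000 called regions, Bach2 held 6.34 and 7.73 in naive DKO, against 8.08 and 8.52 in naive WT. Id3 held 7.68 and 7.41 in naive DKO, against 6.53 and 5.90 in naive WT. Neither pair of groups overlapped, but with 2 libraries against 2 the smallest two-sided p is 0.333. Bcl11b held 0.989 and 1.89 in cultured DKO and 2.36 and 2.30 in cultured WT, against 3.67 and 3.54 in naive DKO and 4.66 and 3.28 in naive WT. Its share of the called regions was therefore lower at 72 h in both genotypes.

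**Figure D1:**
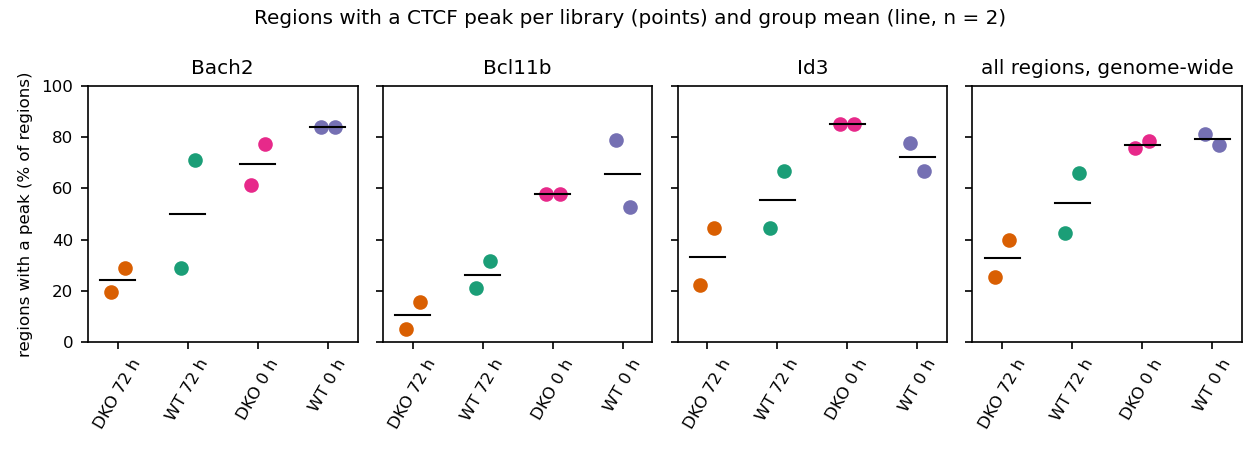
Percentage of the regions of each locus that had a CTCF peak in each library (points; the line is the mean of 2 libraries), with all 39574 regions at the right. Bach2 reached 83.9% in both naive WT libraries, Id3 85.2% in both naive DKO libraries, and the lowest value was 5.26% for Bcl11b in DKO replicate 1 at 72 h.

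Exact two-sided permutation tests over the 8 libraries were run on the number of called regions per locus, 6 tests in all, and none can give a p below 0.0556. For 72 h minus 0 h, permuted within genotype, the mean difference was -12.2 regions at Bach2 (11.5 ± 7.14 at 72 h and 23.8 ± 3.30 at 0 h, SD, n = 4 each, exact permutation p = 0.0556). It was -8.25 at Bcl11b (3.50 ± 2.08 at 72 h and 11.8 ± 2.22 at 0 h, n = 4 each, exact permutation p = 0.0556). It was -9.25 at Id3 (12.0 ± 4.90 at 72 h and 21.2 ± 2.36 at 0 h, n = 4 each, exact permutation p = 0.111). For DKO minus WT, permuted within time, it was -6.25 at Bach2 (exact permutation p = 0.111), -2.25 at Bcl11b (p = 0.278) and -1.25 at Id3 (p = 0.778), with n = 4 each. No locus count passed 0.05. With every list cut to its 10339 strongest peaks, the 72 h minus 0 h difference was -0.5 at Bach2, -0.75 at Bcl11b and -1.5 at Id3, and the DKO minus WT difference was -1.5, 0.25 and 0. Most of the difference in counts with time was not seen at equal list length. Cutting also removes any loss of peaks over the whole genome, so these values cannot tell such a loss from shorter lists.

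Regions specific to 1 group were about as common in the 3 windows as over the genome. A region counted as specific when both libraries of one group and neither of the other had a peak. In naive cells 2 of the 77 regions were DKO-only (2.73% of all regions) and 5 were WT-only (4.88% of all regions). At 72 h none was DKO-only (0.0303% of all regions) and 6 were WT-only (6.37%). In DKO none was specific to 72 h (0.116%) and 24 were specific to 0 h (29.1%). In WT none was specific to 72 h (0.576%) and 12 were specific to 0 h (13.0%). With lists cut to the shortest of each comparison, 2 regions were specific to 0 h in DKO, 5 to 0 h in WT and 2 to WT at 72 h, and 1 was DKO-only at 72 h and 2 were specific to 72 h in WT. Leaving out a single library can only keep or raise these counts, since the other library of that group then decides alone. The naive DKO-only count was 6 without DKO replicate 1, 4 without DKO replicate 2 and 6 without WT replicate 1, and the naive WT-only count was 8 without DKO replicate 2 and 10 without WT replicate 2. At 72 h the WT-only count was 13 without DKO replicate 2 and 21 without WT replicate 1, and 1 region was DKO-only without WT replicate 2. In WT the count specific to 0 h was 26 without replicate 2 at 72 h and 19 without replicate 2 at 0 h, and that specific to 72 h was 4 without replicate 1 at 72 h and 1 without replicate 1 at 0 h. Shares over all regions were not counted for the cut lists or with libraries left out, so those counts have no genome value beside them.

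In the uncut lists, the loci also differed in the share of naive regions without a listed peak after culture. Taking only regions present in both naive libraries, 6 of 9 Bcl11b regions were specific to 0 h in DKO, against 9 of 19 at Bach2, 9 of 20 at Id3 and 42.3% over the genome. In WT these were 4 of 9 at Bcl11b, 6 of 25 at Bach2 and 2 of 16 at Id3, against 18.1%. With lists cut to equal length, no Bcl11b region was specific to 0 h in either genotype, against 1 Bach2 and 1 Id3 region in DKO and 5 Bach2 regions in WT. At that setting the share over the genome was not counted. Nor was the number of regions present in both naive libraries, so the loci cannot be ordered there.

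**Figure D2:**
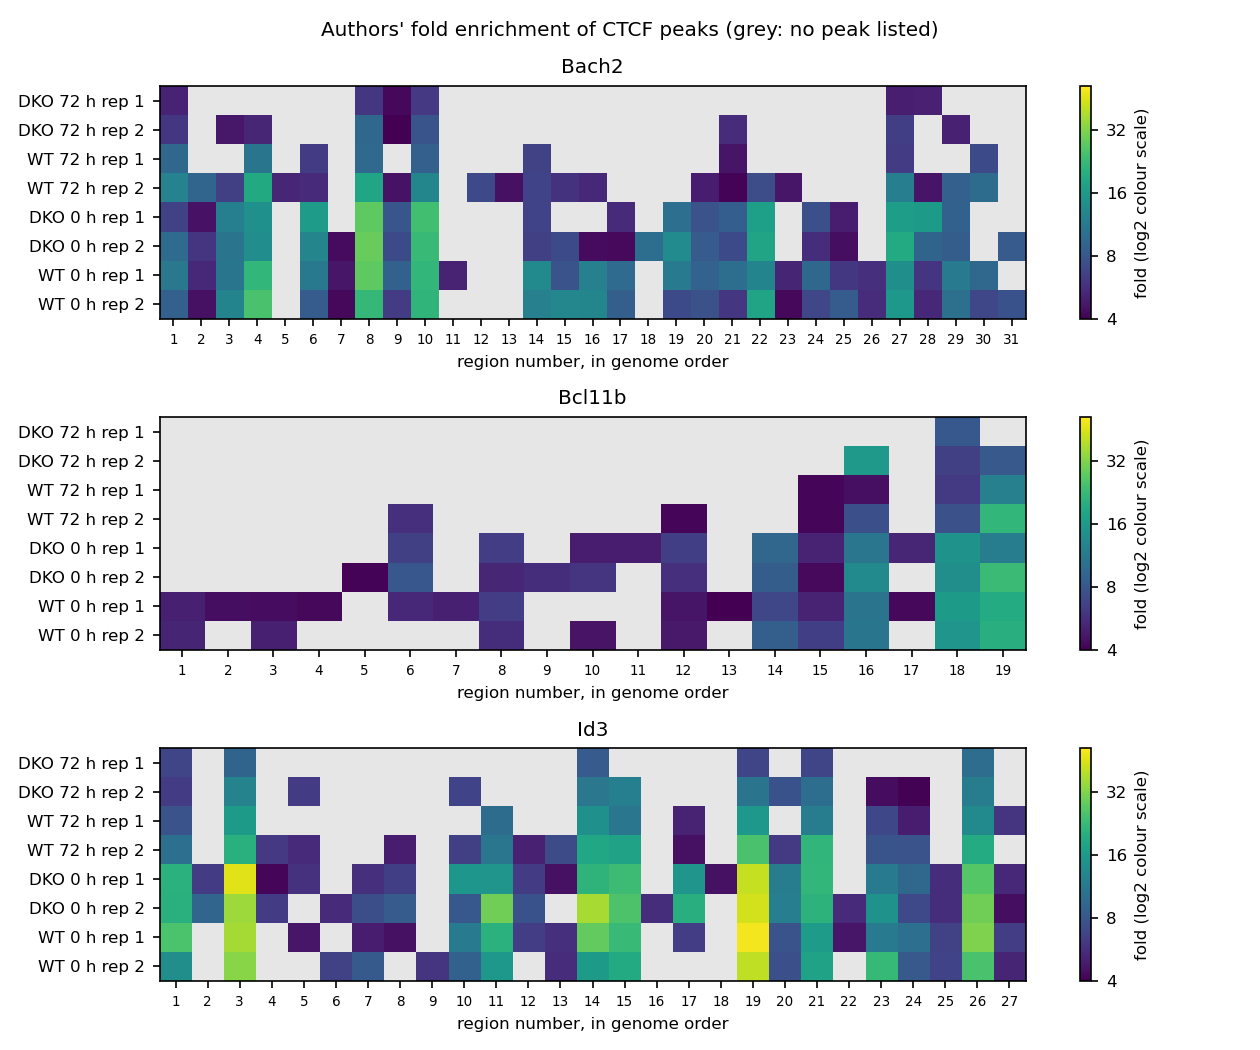
The authors' fold enrichment of the CTCF peak in each region (columns, numbered in genome order within each window) and library (rows, 2 replicates per group), on a log2 colour scale; grey marks no listed peak. The columns of highest mean fold are Id3 regions 19 and 3, and Bcl11b has 1 column filled in all 8 libraries.

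At Bach2, 4 regions were listed in every library, among them the strongest and some of lower fold. The strongest region by mean fold was region 8, chr4:32334921-32336584, with folds of 5.996 and 9.52 in cultured DKO and 9.58 and 18.1 in cultured WT, against 27.5 and 28.6 in naive DKO and 27.6 and 22.1 in naive WT. Region 10, chr4:32344756-32345748, had 6.12 and 7.78 in cultured DKO and 8.80 and 12.9 in cultured WT, against 23.8 and 22.8 in naive DKO and 21.9 and 21.5 in naive WT. In both regions the naive genotypes lay close together and every 72 h library lay below every naive one. Region 27, chr4:32638246-32639064, had 4.97 and 6.47 in cultured DKO and 6.25 and 12.0 in cultured WT, against 16.8 and 19.1 in naive DKO and 14.3 and 15.7 in naive WT. Region 1, chr4:32213503-32214297, had 5.18 and 5.999 in cultured DKO and 9.39 and 12.4 in cultured WT, against 6.65 and 9.78 in naive DKO and 11.1 and 8.80 in naive WT. Unlike the other 3, region 1 had 72 h folds in WT within or above the naive range. These 4 regions were those of Bach2 found in all 8 libraries, against 24.2% of regions over the genome.

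To set libraries side by side without list length, regions with a peak in all 4 libraries of a comparison were ranked by the authors' −log10 p within each library. The shared-region percentile is the share of these regions at or below a given one. In naive cells 24438 regions were shared (61.8% of all), 19 of them at Bach2, 7 at Bcl11b and 15 at Id3. At Bach2 the 2 DKO libraries lay below both WT libraries in 5 of the 19 regions (21.4% over the genome) and above them in 3 (22.4%). At Bcl11b these numbers were 2 and 2 of 7, and at Id3 4 and 2 of 15. These counts are small and no test of a difference from the genome was made. A separation of at least 20 points was found at 3 Bach2 regions with DKO lower (3.54% over the genome) and 2 with DKO higher (3.02%), at 1 Id3 region with DKO higher, and at no Bcl11b region. The difference at 1 of these, Bach2 region 28, was 24.6 points, and 12.9 without DKO replicate 1.

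In 4 successive Bach2 regions, chosen here after their values were seen, naive DKO peaks had lower folds than naive WT peaks or were not listed. Of these, regions 14 and 17 had the largest rank differences among the 19 shared regions, while regions 15 and 16 were not shared and have no rank difference. Region 14, chr4:32377821-32379265, had folds of 6.71 and 6.48 in naive DKO, against 13.6 and 12.2 in naive WT. Its shared-region percentile was 26.6 and 29.4 in DKO, against 75.9 and 75.3 in WT, a difference of -47.6 points, and 0.164% of all shared regions had a lower difference. Region 15, chr4:32393960-32394647, had no peak and 7.09 in the DKO libraries, against 7.74 and 13.0 in WT. Region 16, chr4:32420828-32421930, had no peak and 4.32 in DKO, against 12.2 and 13.0 in WT. Region 17, chr4:32422469-32423250, had 5.50 and 4.26 in DKO, against 9.77 and 8.66 in WT, and its percentile was 22.6 and 12.5 in DKO, against 55.0025 and 53.9 in WT. That each listed naive DKO fold was below both naive WT folds in these regions follows from how they were chosen. How often such runs of regions occur over the genome was not counted. At 72 h, region 14 had no peak in DKO, against 6.66 and 6.72 in WT. At that time regions 15 and 16 had no peak in DKO, and of the WT libraries only replicate 2 listed them, at 5.80 and 5.33. Region 17 had no peak in any 72 h library.

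Other shared Bach2 regions differed in both directions. Region 4, chr4:32250816-32252504, had percentiles of 51.6 and 49.2 in naive DKO, against 70.3 and 79.8 in naive WT, with folds of 14.4 and 14.1 in DKO, against 21.8 and 24.8 in WT. Region 6, chr4:32325067-32327423, was higher in naive DKO, with percentiles of 56.1 and 42.9, against 32.8 and 24.6 in WT, and folds of 16.6 and 12.8, against 11.3 and 8.4001. At 72 h the same region had no peak in DKO, against 6.25 and 5.48 in WT, so it was among the regions specific to WT at 72 h and to 0 h in DKO. The peak summits of region 6 lay up to 1210 bp apart between libraries. Its joined peaks may come from more than 1 site, which was not tested. Region 28, chr4:32658883-32659759, had percentiles of 58.5 and 35.2 in naive DKO, against 23.2 and 21.3 in naive WT. Over the 19 shared Bach2 regions the median naive difference was -2.79 points, against 0.143 points over all shared regions.

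**Figure D3:**
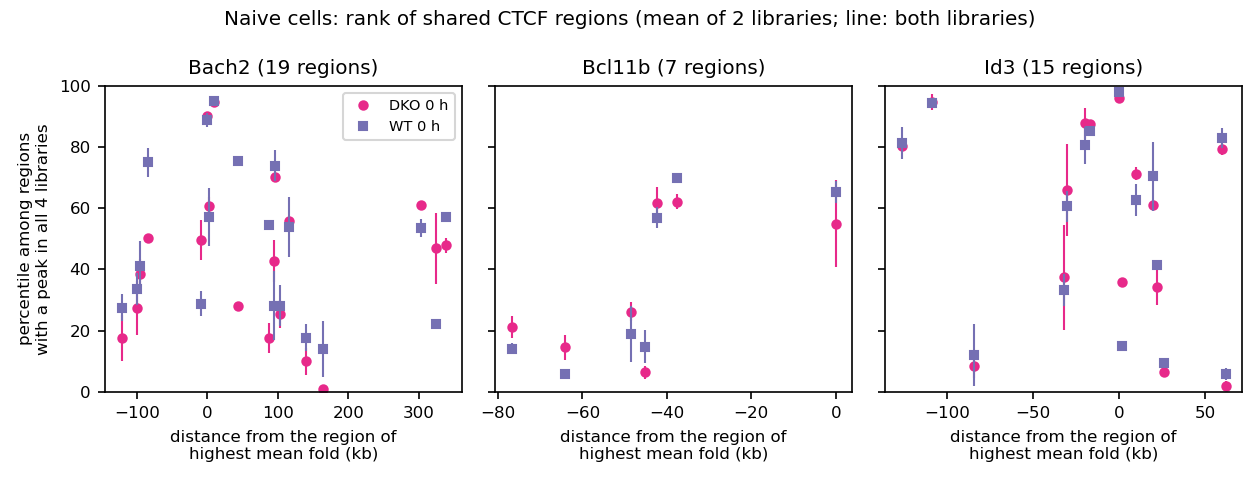
Shared-region percentile in naive DKO (circles) and naive WT cells (squares), mean of 2 libraries with a line joining both, by distance in kb from the region of highest mean fold in each window. The widest gap is Bach2 region 14, at means of 28.0 in DKO and 75.6 in WT.

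One Bach2 region followed genotype at both times. Region 30, chr4:32675151-32675734, had no peak in any of the 4 DKO libraries, against 7.10 and 9.88 in cultured WT and 9.54 and 6.87 in naive WT. A two-sided Fisher's exact test of 4 against 4 libraries gave p = 0.0286, the smallest possible, and an adjusted p of 1 after Benjamini-Hochberg adjustment over all 39574 regions. WT-only regions of this kind were 0.498% of all regions and DKO-only ones 0.0126%. By that test 0 regions passed an adjusted 0.05 for genotype, while 197 WT-only and 5 DKO-only regions had an unadjusted p under 0.05. Region 29, chr4:32673192-32674164, next to region 30, had a peak in all naive libraries, with 8.90 and 8.52 in DKO, against 11.4 and 10.3 in WT. The other naive WT-only regions of Bach2 were weak. Region 26, chr4:32510562-32510994, had no peak in DKO, against 5.71 and 5.54 in naive WT, and region 23, chr4:32452148-32452524, none in DKO, against 5.24 and 4.24.

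Several naive Bach2 regions had no peak after culture, either in DKO alone or in both genotypes. Region 20, chr4:32430404-32431716, had no peak in cultured DKO, against 7.69 and 8.35 in naive DKO. Region 22, chr4:32450301-32451282, had none in cultured DKO, against 16.97 and 17.8 in naive DKO. In WT, both regions were listed at 72 h in replicate 2, at 4.85 and 7.32. Region 19, chr4:32428884-32430029, had no peak in any 72 h library, against 10.2 and 13.8 in naive DKO and 11.3 and 7.11 in naive WT. Region 24, chr4:32474659-32475985, had none at 72 h either, against 7.51 and 5.59 in naive DKO and 9.43 and 6.87 in naive WT. Of the 77 regions, 8 had a peak in all naive and no 72 h library, 4 at Bach2, 2 at Bcl11b and 2 at Id3 (7.51% over the genome). The Fisher test for time gave each of them an adjusted p of 0.376, and 0 regions passed an adjusted 0.05, while 2973 specific to 0 h and 31 specific to 72 h (0.0783%) had an unadjusted p under 0.05.

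At Bcl11b, many regions had weak peaks. Regions 1 to 13 never exceeded a fold of 8.01, and 7 of the 19 regions had a peak in 1 library, against 14.7% over the genome. The strongest by mean fold was region 19, chr12:109279427-109280184, with no peak and 8.22 in cultured DKO and 12.3 and 21.9 in cultured WT, against 11.7 and 23.0 in naive DKO and 19.4 and 20.1 in naive WT. Region 18, chr12:109241729-109242859, was the one found in all 8 libraries, with 8.07 and 6.53 in cultured DKO and 6.17 and 7.54 in cultured WT, against 14.8 and 14.2 in naive DKO and 16.1 and 15.3 in naive WT. All its 72 h folds were below all its naive folds. Among shared regions of WT cells, region 18 had percentiles of 26.8 and 21.2 at 72 h, against 56.0 and 57.1 at 0 h, while region 19 had 75.3 and 80.6 at 72 h, against 45.6 and 54.6 at 0 h. In rank among shared WT regions, these neighbours thus differed with time in opposite directions. In fold they did not, as the WT folds of region 19 overlapped between the times (12.3 and 21.9 at 72 h, against 19.4 and 20.1 at 0 h).

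The other Bcl11b regions named here differed in how many libraries listed them. Region 16, chr12:109236756-109238294, had no peak and 16.006 in cultured DKO and 4.42 and 7.50 in cultured WT, against 11.0 and 13.6 in naive DKO and 10.7 and 10.8 in naive WT. It was the one Bcl11b region whose highest fold was in a 72 h library. Region 15, chr12:109234049-109235110, was specific to WT at 72 h, with no peak in DKO, against 4.19 and 4.12 in WT. Region 14, chr12:109230899-109231889, had no peak at 72 h, against 9.34 and 8.56 in naive DKO and 6.88 and 8.65 in naive WT. The naive WT-only regions were region 3, chr12:109159155-109160038, with no peak in DKO, against 4.36 and 5.03 in WT, and region 1, chr12:109143558-109143972, with no peak in DKO, against 5.03 and 5.21. Of the 7 regions shared by the naive libraries, the largest difference with separated groups, in either direction, was 8.60 points.

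The Id3 window held the region of highest mean fold in the 3 windows. It had 13.5 regions per 100 kb, against 6.33 at Bcl11b, 5.17 at Bach2 and 1.501 over the span covered by all regions. These densities depend on where each window ends, and the median distance between successive regions was 2.95 kb at Id3, against 2.13 kb at Bcl11b and 9.11 kb at Bach2. The strongest was region 19, chr4:135735575-135736774, with folds of 6.82 and 10.7 in cultured DKO and 15.6 and 24.95 in cultured WT, against 41.6 and 43.7 in naive DKO and 49.7 and 40.8 in naive WT. Region 3, chr4:135625630-135628228, had 9.14 and 12.6 in cultured DKO and 16.2 and 20.4 in cultured WT, against 46.4 and 35.7 in naive DKO and 36.6 and 32.9 in naive WT. In both, each DKO library at 72 h was below each WT library at 72 h, and all of these were below the naive libraries. Regions 14 (chr4:135715686-135716873), 26 (chr4:135795368-135796278), 21 (chr4:135745270-135746212) and 1 (chr4:135608859-135610298) were also found in all 8 libraries, with folds from 6.30 to 21.5 at 72 h and from 14.1 to 37.0 at 0 h.

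Naive DKO cells had 2 Id3 regions that naive WT cells lacked, both of low rank. Region 2, chr4:135615891-135616414, had 6.22 and 9.24 in naive DKO and no peak in any other group. Region 4, chr4:135644713-135645234, had 4.16 and 6.34 in naive DKO, none in naive WT, and 6.14 in WT replicate 2 at 72 h. Stronger, but not specific by the rule, was region 17, chr4:135733286-135734256. It had 15.3 and 20.002 in naive DKO, against 6.38 and no peak in naive WT, and no peak in cultured DKO, against 5.14 and 4.48 in cultured WT. Region 20, chr4:135737195-135737886, had percentiles of 37.2 and 34.4 in naive DKO, against 14.8 and 15.2 in naive WT. Region 11, chr4:135704788-135706487, had no peak in cultured DKO, against 9.89 and 11.0 in cultured WT, although all naive libraries listed it (15.3 and 29.7 in DKO, 20.6 and 15.7 in WT). Regions 11 and 17 were the Id3 regions specific to WT at 72 h.

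After culture, shared regions of Bach2 and Id3 ranked lower in DKO than in WT more often than higher. Of 9679 regions shared by the 72 h libraries, 4 lay at Bach2, 1 at Bcl11b and 6 at Id3. DKO was below WT in both libraries at 3 of 4 Bach2 and 3 of 6 Id3 regions (18.8% over the genome) and above at none of these, while Bcl11b region 18 was higher in DKO (19.6% over the genome). Id3 region 19 had percentiles of 39.6 and 57.4 in cultured DKO, against 85.0 and 86.6 in cultured WT, a difference of -37.3 points. Id3 region 21 had 39.6 and 51.8 in cultured DKO, against 63.2 and 78.9 in cultured WT, a difference of -25.3. These and Bach2 region 1 were separated by at least 20 points with DKO lower (6.52% over the genome), and Bcl11b region 18 with DKO higher (6.28%). The difference of 30.9 points at Bcl11b region 18 was 12.05 without DKO replicate 1 and 49.7 without DKO replicate 2. Its folds at 72 h overlapped between the genotypes. Bach2 regions 1, 8 and 10 differed by -20.2, -19.0 and -9.82 points. With 11 shared regions in all and 2 libraries a group, these differences have no test.

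**Figure D4:**
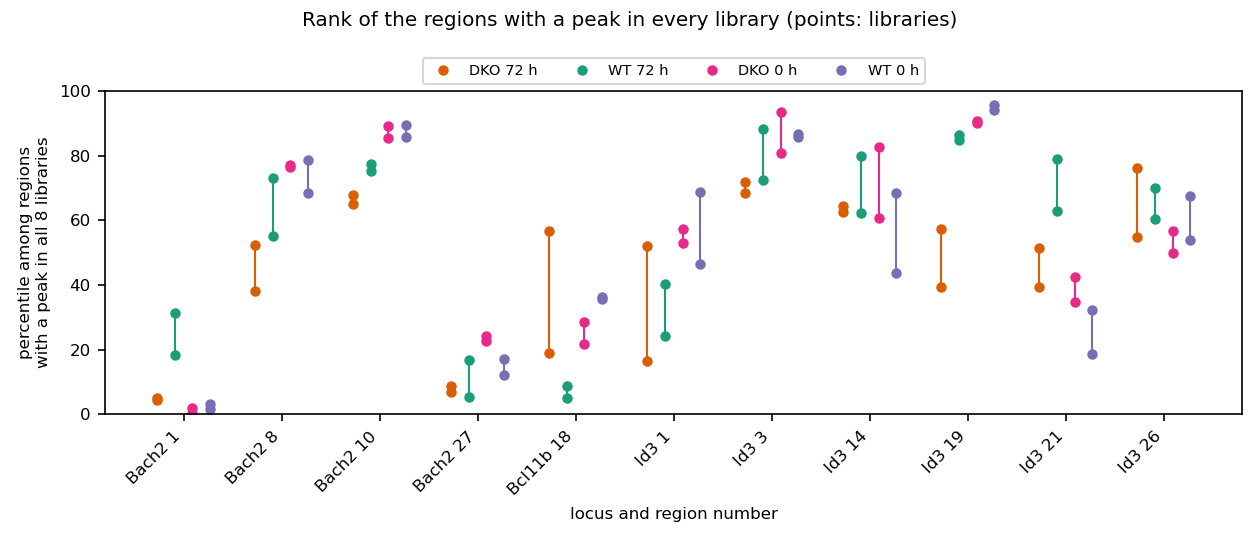
Percentile of the 11 regions found in all 8 libraries among the 9591 such regions of the genome, by locus and region number; points are libraries, in the order DKO 72 h, WT 72 h, DKO 0 h, WT 0 h. Id3 region 19 has 39.4 and 57.2 in cultured DKO, against 84.9 and 86.5 in cultured WT, 90.1 and 90.8 in naive DKO and 95.7 and 94.1 in naive WT.

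Ranks also differed with time among the regions that stayed listed. In DKO, 9822 regions were shared by 72 h and 0 h libraries, and both 72 h libraries were below both naive ones at 3 of 5 Bach2 and 3 of 6 Id3 regions (25.5% over the genome), and above them at 1 Bach2 region (25.6%). Id3 region 19 differed by -41.4 points and Bach2 region 8 by -31.2 points. In WT, 16275 regions were shared, with 72 h lower at 3 of 9 Bach2, 3 of 4 Bcl11b and 3 of 10 Id3 regions (25.9% over the genome) and higher at 2, 1 and 1 (25.1%). In WT the largest positive differences were those of Bach2 region 1, with percentiles of 53.4 and 40.8 at 72 h, against 14.6 and 8.61 at 0 h, and Id3 region 21, with 77.1 and 87.2 at 72 h, against 40.1 and 53.6 at 0 h. A separation by at least 20 points in WT was found with 72 h lower at Bcl11b region 18 and Id3 region 23 (7.48% over the genome), and with 72 h higher at 2 Bach2 regions, Bcl11b region 19 and Id3 region 21 (7.82%). In DKO it was found with 72 h lower at 2 Bach2 and 2 Id3 regions (11.0% over the genome) and with 72 h higher at none (10.8%). Id3 region 23 differed by -21.4 points in WT, by -36.9 without 0 h replicate 1 and by -5.88 without 0 h replicate 2. Id3 region 1 differed by -20.7 points in DKO, by -38.4 without 72 h replicate 1 and by -3.06 without 72 h replicate 2. DKO and WT comparisons over time do not share libraries, but the genotype and time comparisons do.

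Of the regions listed in all 4 naive libraries, a smaller share at Bach2 than at Id3 was listed in each 72 h library. At Bach2, 6 and 9 of 19 were listed in the cultured DKO libraries and 8 and 15 in the cultured WT libraries. At Bcl11b these numbers were 1 and 3 of 7 in DKO and 4 and 5 in WT. At Id3 they were 6 and 11 of 15 in DKO and 11 and 12 in WT. Over the genome, 40.9% and 62.7% of 24438 such regions were listed in DKO and 65.2% and 86.9% in WT. Bach2 lay below the genome's share in all 4 libraries, Bcl11b likewise, and Id3 below it in DKO replicate 1 and WT replicate 2.

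**Figure D5:**
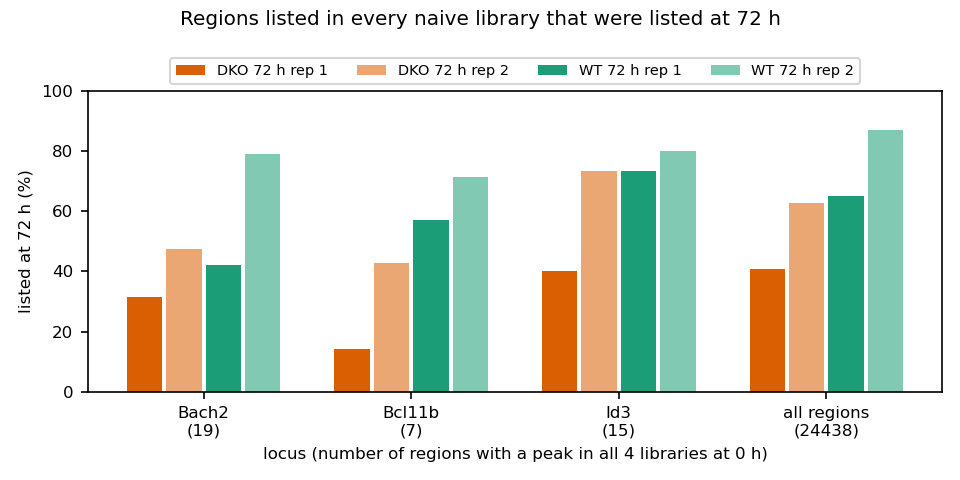
Percentage of the regions with a peak in all 4 naive libraries that were also listed in each 72 h library (bars, 1 per library), by locus and for all regions, with the number of regions under each name. Bach2 ran from 31.6% in DKO replicate 1 to 78.9% in WT replicate 2, and Id3 from 40.0% to 80.0%.

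Among regions listed in every library, peak positions varied less between libraries at Bach2 and Id3 than at Bcl11b region 18. The median summit range was 85.5 bp at Bach2 and 127.5 bp at Id3. The distance between the lowest and highest peak summit over 8 libraries ran from 54 to 125 bp in the 4 Bach2 regions and from 50 to 180 bp in the 6 Id3 regions, and was 331 bp in Bcl11b region 18, against a median of 129 bp over all 9591 such regions. Regions found in all 8 libraries were wider than those found in 1, with medians of 1131 and 324 bp in the 3 windows and 1059 and 340 bp over the genome. A region spans all peaks joined into it, so a greater width with more libraries follows in part from the joining. Spacing was uneven. Leaving out the stretches at the window ends, the longest distance between successive regions was 127 kb at Bach2, between chr4:32510994 and chr4:32638246, against 36.6 kb at Bcl11b and 32.9 kb at Id3.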

How the data were processed

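CTCF CUT&RUN peaks were analysed in 8 libraries and 1 IgG library, grouped by their titles. The submitters' processing notes name Bowtie2 2.2.5, MACS2 2.1.1, FastQC and the mm9 build. For control and thresholds, nothing is given in the sources used here. The deposited lists hold, per peak and library, the authors' fold enrichment over local background, used to describe peaks and not scaled between libraries. The deposited −log10 p and −log10 q values ranked and filtered peaks within a list. The deposited score, a whole number made from −log10 q, was not used. The deposited summit offsets gave summit positions.

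Peaks on the 19 autosomes and X were merged at 1 bp overlap (Python 3.11.15, pandas 2.3.3, scipy 1.17.1), which left out 5 CTCF peaks. Where a library had more than 1 peak in a region (8 of 335 cases), the highest value was taken. Specific regions, exact permutation tests within time or genotype (36 assignments), Fisher's exact tests adjusted over all regions and shared-region percentiles were computed. In a test on simulated lists for naive DKO-only regions, 200 of 200 planted regions among 39574 were recovered. The simulated peaks were short and lay near the middle of each region. The test thus checked the joining and calling steps and does not cover broad peaks or peaks of several summits. Named regions were those found in all 8 libraries or specific to a group (at most 5 each) and the strongest per window, and any others were named after their values were seen. Members were chosen with earlier results of these data known, and shared-region percentiles and their 20-point limit were added after values were seen. Other genes of the naive T cell programme and motifs were not analysed here, since no mm9 annotation or genome was used.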

Additional observations from a re-analysis of the deposited data

Results flagged for a closer look

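Bcl11b region 18, chr12:109241729-109242859, had the opposite genotype difference in rank at the 2 times, with both libraries of each group apart. At 0 h the shared-region percentile was 64.6 and 59.8 in DKO, against 69.5 and 70.6 in WT, a difference of -7.85 points. At 72 h it was 56.9 and 19.2 in DKO, against 9.004 and 5.24 in WT, a difference of 30.9 points. Id3 region 21, chr4:135745270-135746212, showed the reverse pattern. At 0 h it had 73.5 and 69.2 in DKO, against 57.4 and 68.1 in WT, a difference of 8.65 points, and at 72 h 39.6 and 51.8 in DKO, against 63.2 and 78.9 in WT, a difference of -25.3 points. At 0 h its nearest libraries were close, at 69.2 in DKO and 68.1 in WT. Over the genome, DKO lay apart below WT in 21.4% and above in 22.4% of shared regions at 0 h. At 72 h these were 18.8% and 19.6%. How many regions were apart in opposite directions at the 2 times was not counted over the genome. Whether the genotype difference itself differs between the times was not tested. The libraries of DKO at 72 h were far apart at Bcl11b region 18, where the difference at 72 h was 12.05 without DKO replicate 1 and 49.7 without DKO replicate 2. In fold, the genotypes overlapped there at 72 h, with 8.07 and 6.53 in DKO, against 6.17 and 7.54 in WT. The ranks at the 2 times also rest on different sets of shared regions.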

How the results depend on the processing

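Under peaks of −log10 q of at least 5, lists of 10339 peaks, 50% overlap, summits within 100 bp, narrower windows, a replicate block and each library left out, 79 of 84 values of the differences in called regions kept their direction. The replicate block cannot change a difference, only its p, so its values were bound to be kept. A kept direction is not a kept size. With lists of 10339 peaks, 72 h minus 0 h was -0.5 at Bach2, -0.75 at Bcl11b and -1.5 at Id3. The values that did not keep their direction were DKO minus WT at Bcl11b, 0.25 under the −log10 q minimum and 0.25 at equal length, and at Id3, 0 at equal length and from -2.75 to 0.25 over the libraries left out. With 1 library left out, DKO minus WT ran from -9.5 to -3 at Bach2 and from -3.5 to -1 at Bcl11b, and 72 h minus 0 h from -15.5 to -9, from -9.5 to -7 and from -10.8 to -7.75 at Bach2, Bcl11b and Id3. No p was under 0.05 in these settings, and at these sizes none could be.

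Over the 3 windows, 47 of 72 values of the specific counts stayed within 1.5 times. These include counts that were 0 and stayed 0, which have no ratio, so the number overstates how stable the other counts were. At equal list length the counts were 1 for DKO-only and 2 for WT-only at 72 h, 2 for 0 h only in DKO, and 2 for 72 h only and 5 for 0 h only in WT. With a peak in at least 1 library they were 8 for DKO-only and 11 for WT-only at 0 h, 22 for WT-only at 72 h, 38 for 0 h only in DKO, and 4 for 72 h only and 23 for 0 h only in WT. With summits within 100 bp they were 4 for DKO-only at 0 h and 2 for 72 h only in DKO. With 1 library left out they ran from 3 to 6 and 6 to 10 for DKO-only and WT-only at 0 h, 0 to 1 and 6 to 21 for these at 72 h, 0 to 4 and 13 to 26 for 72 h only and 0 h only in WT, and 25 to 35 for 0 h only in DKO. Asking for a peak in at least 1 library, or leaving 1 library out, can only keep or raise a count, so that direction was fixed in advance. Shares over all regions were not counted in these settings.

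Of 100 values of rank differences of at least 20 points, under ranking by fold or with 1 library left out (chosen after seeing the data), 95 moved by no more than the larger replicate SD of the 2 groups, which is wide where replicates lie far apart. Leaving out some library took 11 of the 20 differences below 20 points in size. At Id3 region 1 (72 h minus 0 h in DKO) they ran from -38.4 to -3.06, at Id3 region 23 (72 h minus 0 h in WT) from -36.9 to -5.88, at Bach2 region 28 (DKO minus WT at 0 h) from 12.9 to 36.2 and at Bcl11b region 18 (DKO minus WT at 72 h) from 12.05 to 49.7. Ranked by fold, Bach2 region 28 was at 39.03 and Id3 region 1 at -12.03. The 5 that moved further were ranked by fold, at -38.6 and -29.0 for Bach2 regions 14 and 17 and 23.9 for Id3 region 20 (DKO minus WT at 0 h), and -25.0 and 21.2 for Bcl11b regions 18 and 19 (72 h minus 0 h in WT). The cause was not tested.

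Replicate numbers were not used to pair libraries in the main tests. Over all regions, correlations of replicate differences between groups ran from -0.0167 to 0.0392. Such correlations cannot show whether libraries of the same number shared an animal or a batch, which the labels do not give. With a replicate block the differences were the same (-12.2 at Bach2 for time), and the exact permutation p for time was 0.125 at Bach2 and Bcl11b and 0.25 at Id3. For genotype it was 0.125, 0.25 and 0.75 at Bach2, Bcl11b and Id3, where 0.125 is the smallest possible, and no call changed. The number of libraries and the fold limit of the lists set what could be seen, and a weak site below that limit appears as absent.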
